A study of Bos taurus with 17 samples.

Results

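The 35 genes described here build the mitotic machinery or drive its steps, and they were picked by gene name from a table of RNA levels in bovine (Bos taurus) mesenchymal stem cells of the umbilical cord. All 35 were found among the 12894 genes of the table, and all 35 were among the 10960 genes whose mean level was high enough for testing. The cells, a primary culture of stromal cells, had been kept in low-glucose medium with fetal bovine serum. The study asked how growth on a cellulose scaffold, with growth factors in the medium or bound to the scaffold, bears on the proliferation and differentiation of cells meant for cultivated meat. Cells on plastic were collected at day 0, 1 day after seeding and without treatment (3 libraries), and after 3 days (3 libraries) or 21 days (2 libraries) in a myogenic differentiation medium. That medium was DMEM/F-12 with less serum, ITS (the usual abbreviation of an insulin, transferrin and selenium supplement), BSA, dexamethasone, ascorbic acid 2 phosphate, vascular endothelial growth factor, insulin-like growth factor and a fibroblast growth factor. Cells on scaffold were collected at day 21, either on scaffold that itself carried the growth factors, in medium without them (the smart scaffold, in 3 libraries), or on scaffold in the same medium as on plastic (the media scaffold, in 4 libraries). Time and medium changed together between day 0 and the later days, so their parts cannot be told apart. The labels name neither animals nor passages, and call the libraries of a group biological replicates.

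A cell enters mitosis when CDK1, bound to cyclins A and B, is switched on, and CDK1 then acts with Aurora and Polo-like kinases to condense chromosomes and build the spindle. Kinetochores, protein assemblies on the centromeres, attach chromosomes to spindle fibres, and the spindle checkpoint holds the cell until every chromosome is attached. The anaphase-promoting complex (APC/C), a ubiquitin ligase, then has cyclin B destroyed, and the cell divides by cytokinesis. Transcripts of most of these genes peak in the G2 and M phases of the cell cycle and are low in resting cells, so mesenchymal cells in growth medium usually hold far more of them than cells that have stopped dividing.

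Levels are normalized reads, that is, 3′-end reads divided by the authors' scaling factor of the library. The libraries held 2197356 to 15483745 reads, and the 35 genes together took 29040 to 51261 reads per library at day 0, 7871 to 16786 at day 3 and, at day 21, 935 to 2198 on the scaffolds and 767 and 351 on plastic. The p-values rest on the spread between libraries, and all intervals of read counts cover counting error only. Of 8 mesenchymal markers all 8 were detected, with summed levels of 85636 normalized reads or more in every library. Of 10 blood and immune markers 4 were in the table, and their summed levels were 16.0 to 22.5 normalized reads at day 0, 19.6 to 54.6 at day 3 and, at day 21, 9.54 to 10.3 on the smart scaffold, 6.57 to 12.9 on the media scaffold and 102 and 127 on plastic. CD34 was at 0 in all libraries of day 0. Of 8 endothelial markers 4 were in the table, with summed levels of 45.3 to 48.6 normalized reads at day 0, 58.9 to 102 at day 3 and, at day 21, 142 to 159 on the smart scaffold, 109 to 130 on the media scaffold and 80.0 and 134 on plastic. Of 8 skeletal muscle markers 5 were in the table, with 962 to 1038 at day 0, 889 to 1728 at day 3 and, at day 21, 10826 to 11423 on the smart scaffold, 10948 to 12315 on the media scaffold and 11920 and 14415 on plastic. Of 8 epithelial markers 1 was in the table, CDH1, at no more than 5.97 in any library. The part of these markers in the results was not tested. The 3 libraries of day 3 differed along a gradient of their own, computed from all other genes. Their scores on it were 0.0654 for replicate 1, 1.504 for replicate 2 and −1.995 for replicate 3. The plastic libraries of day 21 scored 1.67 and 1.85 on it, and all other libraries between −0.70 and −0.00473.

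The summed RNA of the 35 genes was lower in both later stages, and it was lowest on plastic at day 21. At day 0 the genes took 0.324%, 0.339% and 0.331% of all reads, and at day 3 they took 0.195%, 0.190% and 0.252%. At day 21 the shares were 0.0217%, 0.0234% and 0.0220% on the smart scaffold, 0.0233%, 0.0234%, 0.0245% and 0.0256% on the media scaffold, and 0.0146% and 0.0160% on plastic. No 2 stages overlapped, and at day 21 every scaffold library lay above both plastic libraries, while the libraries of the scaffold types overlapped each other. In normalized reads, the summed level at day 3 was 61.0% of that at day 0. At day 21 it was 7.91% of day 0 on the smart scaffold, 8.68% on the media scaffold and 5.54% on plastic, which put it at 1.43 times and 1.57 times the plastic level on the smart and the media scaffold. Such a sum weighs the members with many reads most. By gene, 10 of the 35 were called higher than on plastic on the smart and 12 on the media scaffold (21.4% and 20.8% of all genes). PLK1 and AURKB lay below plastic on both. In bulk RNA, a smaller share of dividing cells and less of these transcripts in each dividing cell cannot be told apart.

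**Figure D1:**
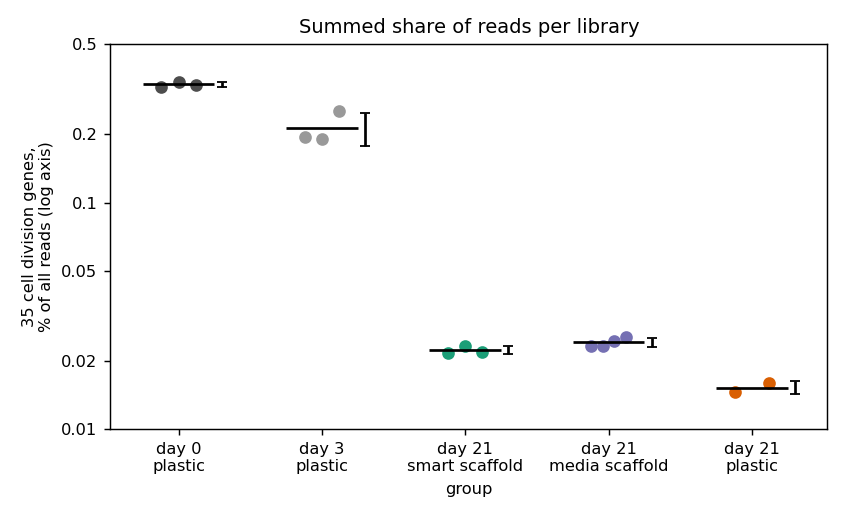
Share of all reads taken by the 35 cell division genes (vertical axis, percent, log scale) in each library, by group (horizontal axis). Points are libraries, horizontal lines are group means and error bars are 1 SD. The shares were 0.324% to 0.339% at day 0, 0.190% to 0.252% at day 3, 0.0217% to 0.0256% on the scaffolds at day 21, and 0.0146% and 0.0160% on plastic at day 21.

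By gene, the level left at day 3 was 43.8% to 83.9% of day 0 (median 59.3%), lowest for the cyclin gene CCNA2 and highest for CDC20. At day 21 the members kept a median of 7.28% on the smart scaffold, 7.41% on the media scaffold and 6.03% on plastic. The range at day 21 was 2.14% (KIF15) to 29.7% (RACGAP1) on the smart scaffold, 3.42% (TOP2A) to 30.3% (RACGAP1) on the media scaffold, and 0.699% (KIF15) to 17.8% (AURKB) on plastic. Some of these levels rest on few reads. The group mean was under 5 normalized reads for KIF11, KIF15, KIF2C and TTK on the smart scaffold, for KIF2C and TTK on the media scaffold, and for KIF15 and PKMYT1 on plastic, so that these genes were tested there through their level at the earlier times. A library at 0 occurred for KIF15 on the smart scaffold and for CENPA, KIF15 and PKMYT1 on plastic at day 21.

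**Figure D2:**
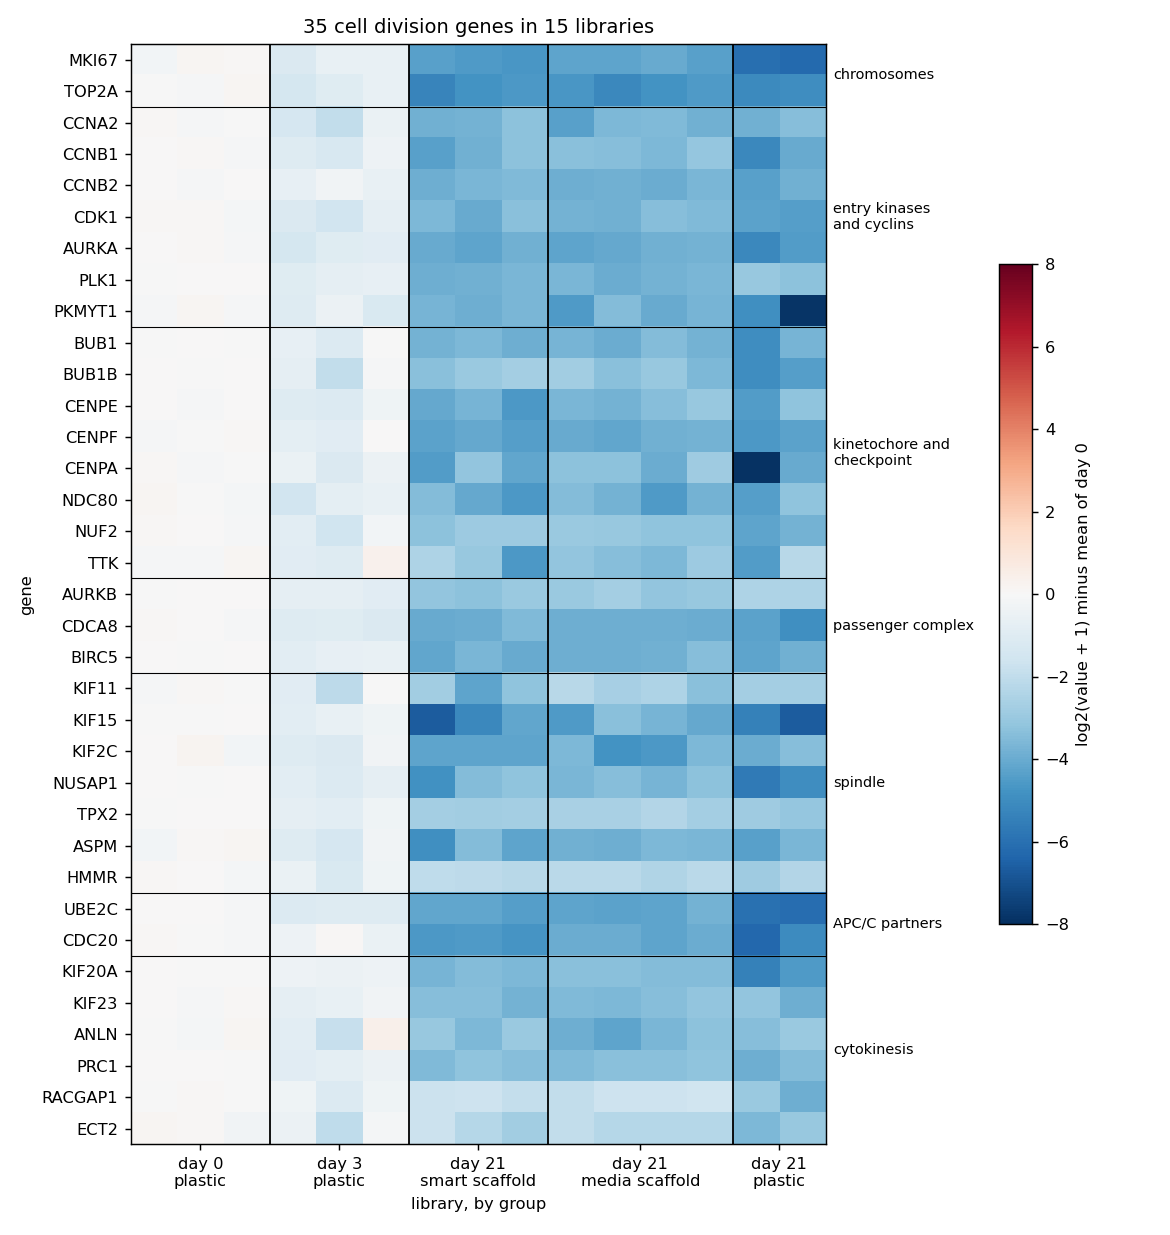
Level of each of the 35 cell division genes (rows, grouped by role) in each of the 15 libraries (columns, by group), as log2(normalized reads + 1) minus the gene's mean on that scale over the day 0 libraries. Blue is below day 0 and red above. Genes are pale at day 3 and blue at day 21. MKI67, UBE2C, NUSAP1 and KIF20A are each darker in the 2 plastic libraries of day 21 than in the gene's other libraries.

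Of the genes tied to mitotic chromosomes, MKI67 encodes the Ki-67 protein that coats them and is the usual marker of proliferating cells. MKI67 (ENSBTAG00000002444) had 1342, 1772 and 1702 normalized reads at day 0 and 729, 1067 and 1060.4 at day 3. At day 21 MKI67 had 75.9, 66.8 and 62.1 on the smart scaffold, 83.7, 84.6, 98.0 and 77.0 on the media scaffold and 23.5 and 20.6 on plastic. The 3 stages did not overlap, every scaffold library held more than 2 times the reads of either plastic library, and the smart scaffold libraries all lay below the media scaffold libraries. MKI67 fell by 6.12 on the log2 scale on plastic at day 21 against day 0 (SE 0.18, limma, Benjamini-Hochberg adjusted p = 1.76e-14), and was higher than on plastic by 1.59 on the smart scaffold (SE 0.18, adjusted p = 6.66e-07) and by 1.91 on the media scaffold (SE 0.17, adjusted p = 4.46e-08). TOP2A encodes topoisomerase II alpha, which untangles sister chromatids. TOP2A had 352, 328 and 395 at day 0 and 135, 183 and 241 at day 3, and at day 21 8.25, 12.1 and 13.8 on the smart scaffold, 13.1, 8.95, 12.1 and 14.8 on the media scaffold and 9.66 and 10.3 on plastic. Its 3 stages did not overlap, but its scaffold and plastic libraries at day 21 did, and it kept 3.18% of day 0 on the smart scaffold, 3.42% on the media scaffold and 2.79% on plastic. The difference from plastic was 0.15 on the smart scaffold (SE 0.27, limma adjusted p = 0.65) and 0.25 on the media scaffold (SE 0.26, limma adjusted p = 0.404) on the log2 scale, neither past the test.

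Among the 7 cyclins and kinases of mitotic entry, CDK1 is the kinase that starts mitosis. CDK1 (ENSBTAG00000010109) had 414, 412 and 349.7 normalized reads at day 0 and 179, 134 and 237 at day 3. At day 21 CDK1 had 31.4, 23.4 and 36.8 on the smart scaffold, 27.9, 26.9, 36.4 and 33.6 on the media scaffold and 19.3 and 17.2 on plastic. Both plastic libraries lay below every scaffold library, but the differences of 0.69 (smart scaffold, SE 0.24) and 0.73 (media scaffold, SE 0.23) on the log2 scale were under the 2-fold threshold set for a call. CCNB1 encodes cyclin B1, the main partner of CDK1. CCNB1 had 528, 572 and 483 at day 0, 259, 219 and 405 at day 3, and at day 21 24.8, 36.4 and 54.0 on the smart scaffold, 50.9, 48.8, 42.1 and 61.2 on the media scaffold and 13.8 and 30.9 on plastic. The plastic libraries differed from each other, and the lowest smart scaffold library lay between them. CCNB1 was higher than on plastic by 1.24 on the media scaffold (SE 0.31, limma adjusted p = 0.00208, and 0.68 without plastic replicate 1, where adjusted p = 0.0908, and 0.81 with the day 3 gradient as a covariate, where adjusted p = 0.0823), and differed by 0.79 on the smart scaffold (SE 0.32), short of a call. The call on the smart scaffold was reached without plastic replicate 2 (1.34) or without smart scaffold replicate 1 (1.06).

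CCNA2, the gene of cyclin A2, which acts in S phase and early mitosis, had 167, 142 and 154 normalized reads at day 0 and 59.3, 38.2 and 105 at day 3. At day 21 CCNA2 had 9.90, 10.4 and 14.9 on the smart scaffold, 6.57, 11.9, 12.1 and 9.87 on the media scaffold and 9.66 and 13.7 on plastic, and these 3 groups overlapped. The Aurora A gene AURKA, a kinase of centrosomes and spindle poles, had 930.3, 979.6 and 856 at day 0 and 349.6, 466 and 489 at day 3. Its day 21 levels were 56.1, 49.5 and 63.2 on the smart scaffold, 49.2, 53.7, 62.4 and 67.1 on the media scaffold and 24.8 and 41.2 on plastic, with both plastic libraries below all others. PKMYT1, a kinase that holds CDK1 inactive until mitosis, had 221, 255 and 222 at day 0, 115, 166 and 99.97 at day 3, and at day 21 16.5, 14.7 and 17.2 on the smart scaffold, 9.03, 19.9, 12.96 and 16.8 on the media scaffold and 6.90 and 0 on plastic. These plastic values are 5 reads and 0 reads. Ratios of counts pool the reads of a group, so deeper libraries weigh more than in the group means, and the 2 can differ. By pooled counts the PKMYT1 level was 3.25 times that of plastic on the smart scaffold (95% exact counting interval 1.29 to 10.5). On the media scaffold it was 2.91 times (1.18 to 9.26). CCNB2, the gene of cyclin B2, kept 7.69% of day 0 on the smart scaffold, 6.78% on the media scaffold and 5.86% on plastic. PLK1, the gene of Polo-like kinase 1, which acts from mitotic entry to cytokinesis, went the other way from most members at day 21. PLK1 had 84.2, 86.8 and 101 on the smart scaffold and 103, 79.6, 94.0 and 102 on the media scaffold, against 157 and 131 on plastic. Every scaffold library lay below both plastic libraries, with a difference of −0.66 on the smart scaffold (SE 0.14, limma adjusted p = 7.44e-04) and −0.60 on the media scaffold (SE 0.14, limma adjusted p = 0.00101), less than the 2-fold needed for a call.

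Of the 8 kinetochore and checkpoint genes, CENPA encodes the histone that marks centromeres. CENPA had 258, 226 and 236 normalized reads at day 0, 165, 107 and 171 at day 3, and at day 21 9.90, 26.0 and 12.6 on the smart scaffold, 23.8, 23.9, 14.6 and 32.6 on the media scaffold and 0 and 13.7 on plastic. The plastic libraries held 0 and 4 reads, and the second lay above 2 of the 3 smart scaffold libraries. CENPA was called higher on both scaffolds (2.05 on the smart and 2.63 on the media scaffold), and both calls were lost without plastic replicate 1, where the values were 0.11 and 0.69, and the smart scaffold call also without smart scaffold replicate 2 (1.67, limma adjusted p = 0.0734). With the day 3 gradient as a covariate CENPA was at 1.81 on the smart scaffold (limma adjusted p = 0.193) and 2.42 on the media scaffold (limma adjusted p = 0.0627), neither called. Fitted on the smart scaffold and plastic alone, it was at 2.05 and not called (limma adjusted p = 0.116). BUB1B encodes the checkpoint protein BUBR1. BUB1B had 14.9, 19.96 and 24.1 on the smart scaffold and 23.0, 14.9, 18.6 and 12.8 on the media scaffold, against 4.14 and 6.87 on plastic at day 21, where the 2 plastic libraries held 5 reads in all. The groups did not overlap, and BUB1B rose by 1.67 on the smart scaffold (SE 0.40, limma adjusted p = 0.00153) and by 1.50 on the media scaffold (SE 0.38, limma adjusted p = 0.00244) against plastic. Both calls were lost with the day 3 gradient as a covariate, at 0.65 on the smart and 0.59 on the media scaffold. The checkpoint kinase gene BUB1 had 281, 287 and 284 at day 0 and 181, 133 and 280.3 at day 3. Its day 21 levels were 19.8, 22.6 and 18.4 on the smart scaffold, 20.5, 16.9, 25.1 and 19.7 on the media scaffold and 8.28 and 20.6 on plastic, and the second plastic library lay among the scaffold libraries. CENPE encodes a kinesin motor of the kinetochore. CENPE had 309, 282 and 307 at day 0, 146, 141 and 236 at day 3, and at day 21 16.5, 21.7 and 11.5 on the smart scaffold, 23.0, 20.9, 27.5 and 35.5 on the media scaffold and 12.4 and 30.9 on plastic. All 3 groups of day 21 overlapped for it. TTK, the gene of the checkpoint kinase MPS1, had 48.5, 48.0 and 56.1 at day 0 and 26.9, 24.1 and 64.3 at day 3, and at day 21 8.25, 5.21 and 1.15 on the smart scaffold, 4.92, 3.98, 3.24 and 5.92 on the media scaffold and 1.38 and 10.3 on plastic. The 2 plastic libraries of TTK, with 4 reads in all, held one of the lowest and the highest of these values, and the groups overlapped. The other members of this group, CENPF, NDC80 and NUF2, kept 5.19% to 11.9% of day 0 on the smart scaffold, 6.30% to 11.3% on the media scaffold and 4.43% to 7.10% on plastic. NDC80 and NUF2 are the paired parts of the NDC80 complex, which binds spindle fibres. NUF2 had 29.7, 38.2 and 37.9 on the smart scaffold and 36.9, 34.8, 31.6 and 30.6 on the media scaffold, against 15.2 and 20.6 on plastic at day 21. For NDC80 the values were 11.6, 6.94 and 4.60 on the smart scaffold and 11.5, 8.95, 4.86 and 8.88 on the media scaffold, against 5.52 and 13.7 on plastic. NUF2 thus did not overlap between scaffold and plastic and NDC80 did.

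The chromosomal passenger complex, which corrects faulty attachments and steers cytokinesis, was represented by AURKB, its kinase, and by CDCA8 (borealin) and BIRC5 (survivin). AURKB had 435, 443 and 441 normalized reads at day 0 and 263, 272 and 234 at day 3. At day 21 AURKB had 47.9, 44.2 and 56.3 on the smart scaffold, 54.2, 66.7, 49.4 and 53.3 on the media scaffold and 77.3 and 79.0 on plastic. AURKB kept the largest share of day 0 on plastic of all 35 members, 17.8%, and every scaffold library lay below both plastic libraries. It differed from plastic by −0.66 on the smart scaffold (SE 0.16, limma adjusted p = 0.00143) and −0.49 on the media scaffold (SE 0.15, limma adjusted p = 0.00854) on the log2 scale, under the 2-fold threshold. CDCA8 and BIRC5 kept 6.84% and 6.48% of day 0 on the smart scaffold, 6.42% and 7.41% on the media scaffold, and 4.08% and 6.09% on plastic. For CDCA8 the plastic libraries lay below the scaffold ones, opposite to AURKB, though no difference of the complex was called. CDCA8 had 26.4, 26.9 and 36.8 on the smart scaffold and 27.9, 28.9, 28.3 and 27.6 on the media scaffold, against 22.1 and 13.7 on plastic.

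Among the 7 spindle genes, KIF15 and KIF11 encode plus-end-directed kinesins that keep the spindle bipolar. KIF15 had 97.7, 97.6 and 101 normalized reads at day 0 and 53.9, 65.4 and 78.5 at day 3. At day 21 KIF15 had 0, 1.74 and 4.60 on the smart scaffold, 3.28, 8.95, 6.48 and 4.94 on the media scaffold and 1.38 and 0 on plastic. The plastic libraries held 1 read of it in all. By reads pooled within each group, not by group means, the day 0 level was 101 times the plastic level (95% counting interval 18.0 to 3977). Pooled in the same way, the media scaffold level was 5.91 times that of plastic (0.970 to 242) and the smart scaffold level 2.32 times (0.281 to 107). KIF15 on the media scaffold passed the test in limma (adjusted p = 0.00233), but not in edgeR (adjusted p = 0.0805) and not without plastic replicate 2 (adjusted p = 0.0652). KIF11 had 47.8, 54.4 and 48.9 at day 0 and 26.9, 11.1 and 48.2 at day 3. At day 21 it had 6.60, 1.74 and 4.60 on the smart scaffold, 9.85, 6.96, 8.10 and 3.95 on the media scaffold and 6.90 and 6.87 on plastic, at 10 reads on the smart scaffold and 7 on plastic in all. The smart scaffold libraries of KIF11 lay below the plastic ones and the media scaffold libraries lay around them, and neither difference passed the test. HMMR encodes a spindle assembly factor that is also a hyaluronan receptor. HMMR had 156, 150.4 and 132 at day 0, 101, 62.4 and 114 at day 3, and at day 21 34.7, 33.8 and 29.9 on the smart scaffold, 32.0, 31.8, 26.7 and 32.6 on the media scaffold and 19.3 and 27.5 on plastic. It kept 22.4% of day 0 on the smart scaffold, 21.1% on the media scaffold and 16.0% on plastic. NUSAP1, which bundles spindle fibres, had 14.9, 40.8 and 48.3 on the smart scaffold and 35.3, 41.8, 34.02 and 46.4 on the media scaffold, against 8.28 and 13.7 on plastic. Every scaffold library of NUSAP1 lay above both plastic libraries, though smart scaffold replicate 1 only just, and the gene rose by 1.45 (smart scaffold, SE 0.34, limma adjusted p = 0.00136) and 1.78 (media scaffold, SE 0.32, limma adjusted p = 1.41e-04). TPX2, the activator of Aurora A on the spindle, kept 14.96% on the smart scaffold, 16.9% on the media scaffold and 12.5% on plastic. ASPM, a protein of spindle poles, and KIF2C, a kinesin that takes spindle fibres apart, overlapped between the media scaffold and plastic.

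The APC/C partners of the list are CDC20, which activates it in mitosis, and UBE2C, the enzyme that hands it ubiquitin. UBE2C had 2515, 2504 and 2314 normalized reads at day 0 and 1165, 1210.5 and 1182 at day 3. At day 21 UBE2C had 135, 139 and 115 on the smart scaffold, 128, 124, 131 and 175 on the media scaffold and 38.6 and 34.4 on plastic. The plastic libraries lay far below the scaffold ones and close to each other, and UBE2C was higher by 1.80 on the smart scaffold (SE 0.14, limma adjusted p = 1.19e-08) and 1.89 on the media scaffold (SE 0.13, limma adjusted p = 3.69e-09), the smallest adjusted p among the members in both comparisons. CDC20 had 1489, 1324 and 1303 at day 0 and 1027, 1493 and 932 at day 3. At day 21 CDC20 had 56.1, 59.0 and 50.6 on the smart scaffold, 85.4, 87.6, 73.7 and 84.9 on the media scaffold and 16.6 and 41.2 on plastic. At day 3 the second library held as much CDC20 as any of day 0. At day 21 the smart scaffold lay between the media scaffold and plastic with no overlap on either side. Against plastic CDC20 rose by 1.04 on the smart scaffold and 1.62 on the media scaffold, and both calls were lost without plastic replicate 1 (0.41 and 0.99), the smart scaffold call also without smart scaffold replicate 2 (0.995), with pseudocount 4 (0.96) and with quantile normalization (0.85).

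Of the 6 cytokinesis genes, RACGAP1 and KIF23 encode the subunits of centralspindlin, the complex that sets the site of division, and ECT2 encodes the exchange factor that centralspindlin recruits to switch on RhoA. RACGAP1 had 576, 609 and 563 normalized reads at day 0 and 455, 267 and 468 at day 3. At day 21 RACGAP1 had 177, 185 and 157 on the smart scaffold, 150.2, 181, 186 and 189 on the media scaffold and 73.1 and 37.8 on plastic. The lowest scaffold library held about 2 times the reads of the higher plastic library. RACGAP1 kept 29.7% of day 0 on the smart scaffold and 30.3% on the media scaffold, the largest share of the 35 members on each, against 9.52% on plastic. It was higher than on plastic by 1.69 on the smart scaffold (SE 0.24, limma adjusted p = 9.93e-06) and 1.72 on the media scaffold (SE 0.23, limma adjusted p = 4.69e-06). Its partner KIF23 had 220.1, 206 and 234 at day 0 and 135, 144 and 179 at day 3. At day 21 KIF23 had 19.8, 19.96 and 14.9 on the smart scaffold, 18.1, 16.9, 20.2 and 23.7 on the media scaffold and 23.5 and 13.7 on plastic, and the plastic libraries lay on either side of most scaffold libraries. Of its day 0 level KIF23 kept 8.28% on the smart scaffold, 8.96% on the media scaffold and 8.45% on plastic.

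ECT2 had 69.6, 66.7 and 51.3 normalized reads at day 0, 43.8, 14.1 and 55.3 at day 3, and at day 21 18.2, 12.1 and 8.05 on the smart scaffold, 14.8, 11.9, 12.1 and 11.8 on the media scaffold and 4.14 and 6.87 on plastic. Every scaffold library lay above both plastic libraries, which held 5 reads in all. ECT2 was at the edge of a call on both scaffolds (1.05, limma adjusted p = 0.0491 on the smart scaffold, and 1.10, limma adjusted p = 0.0315 on the media scaffold). The call on the smart scaffold was lost without either plastic library (0.74 without replicate 1 and 1.36 without replicate 2) or without smart scaffold replicate 1 (0.78) or 2 (1.05), and that on the media scaffold without plastic replicate 1 (0.79) or media scaffold replicate 1 (1.03). In all, the ECT2 call was lost in 14 of 19 alternatives on the smart scaffold, among them edgeR, and in 7 of 20 on the media scaffold. KIF20A, a kinesin that carries the passenger complex to the midzone, had 1063, 1036 and 1035 at day 0 and 793, 741 and 793 at day 3. At day 21 KIF20A had 77.6, 92.8 and 83.9 on the smart scaffold, 103, 101, 94.0 and 92.8 on the media scaffold and 23.5 and 44.7 on plastic. The groups did not overlap, with a rise over plastic of 1.36 on the smart scaffold (SE 0.18, limma adjusted p = 6.33e-06, and 0.91 without plastic replicate 1) and 1.56 on the media scaffold (SE 0.17, limma adjusted p = 7.07e-07). PRC1, which bundles fibres of the midzone, kept 9.52% of day 0 on the smart scaffold, 9.75% on the media scaffold and 7.84% on plastic. ANLN, the anillin of the contractile ring, had 23.1, 15.6 and 24.1 on the smart scaffold and 12.3, 9.95, 14.6 and 19.7 on the media scaffold, against 17.9 and 24.1 on plastic, with overlap between all 3.

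**Figure D3:**
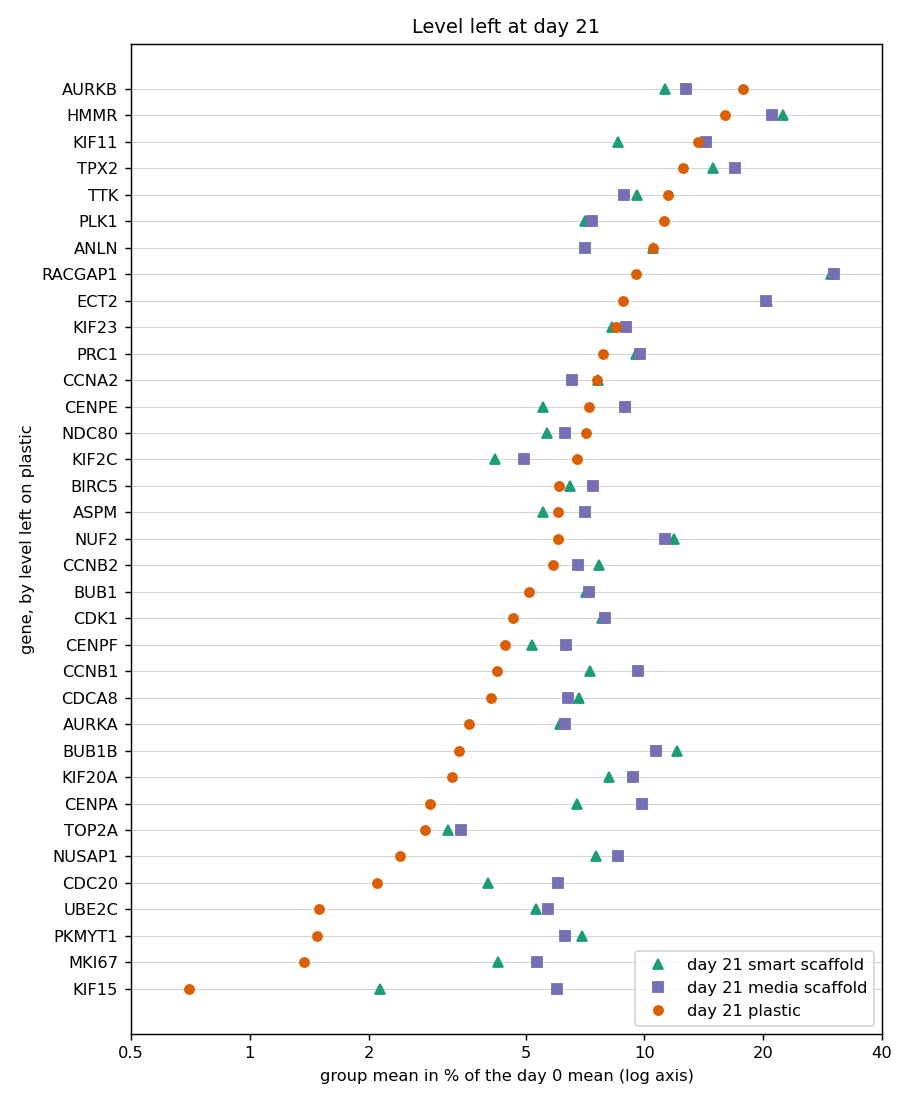
Mean level at day 21 in percent of the mean level at day 0 (horizontal axis, log scale) for each of the 35 genes (vertical axis, ordered by the level on plastic), on the smart scaffold (triangles), the media scaffold (squares) and plastic (circles). The plastic values run from 0.699% (KIF15) to 17.8% (AURKB). MKI67, UBE2C and RACGAP1 are among the genes that lie well to the right of plastic on both scaffolds.

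The comparison of day 3 with day 0 on plastic covers the first days in differentiation medium. All 35 genes had a fitted change below 0, as had 51.7% of all genes tested, and the median was −0.78 on the log2 scale against −0.02 over all genes. The 5 changes that passed as calls were those of CCNA2 (−1.30, SE 0.32), CDK1 (−1.13, SE 0.21), AURKA (−1.10, SE 0.18), CDCA8 (−1.06, SE 0.18) and UBE2C (−1.04, SE 0.13). A call here takes an adjusted p under 0.05 and a change of at least 1 on the log2(normalized reads + 1) scale, which is 2-fold. The 5 that fell are 14.3% of the members, while 3.73% of all genes fell and 6.27% rose. In edgeR 7 members fell, TOP2A, CCNA2, AURKA, UBE2C, CDCA8, NDC80 and PKMYT1 but not CDK1, as did 3.99% of all genes. None of the members rose (limma, 0 at an unadjusted p under 0.05, 0 in edgeR). With no minimum fold, 21 of the 35 were lower at an adjusted p under 0.05, as were 15.3% of all genes. The smallest differences were those of CDC20 (−0.28, SE 0.23) and KIF20A (−0.43, SE 0.16). For 29 members the libraries of day 3 all lay below those of day 0, as for 23.2% of all genes. The exceptions were CENPF, KIF11, CDC20, ANLN, TTK and ECT2.

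The day 3 libraries themselves differed. Replicate 3 held the highest level for 27 of the 35 members and replicate 2 the lowest for 20, while they were highest and lowest for 35.2% and 34.5% of all genes. The highest day 3 library held a median of 1.67 times the lowest (1.04 for UBE2C to 4.71 for ANLN), against a median of 1.14 at day 0. ANLN had 112, 55.3 and 261 normalized reads at day 3, so that replicate 2 stood at −2.22 from replicate 3 on the log2 scale, with KIF11 (−2.03), ECT2 (−1.90) and BUB1B (−1.85) after it. For CDC20 and PKMYT1 replicate 2 lay above replicate 3 instead, by 0.68 and 0.73. The part of the gradient among the day 3 libraries in these results was not tested. Without replicate 3 of day 3 the number that fell was 16, and without replicate 2 it was 3, with CCNA2 at −0.95 and CDK1 at −0.92. AURKA was at −0.95 without replicate 1 of day 3. Rescaling to the same total put UBE2C at −0.98 and CDCA8 at −0.99, and CDK1 was at −0.95 in edgeR, so that each of the 5 calls was lost under at least 1 alternative.

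Between day 0 and day 21 on plastic all 35 genes fell, where 24.1% of all genes did and 21.2% rose. The changes ran from −6.37 (PKMYT1) to −2.48 (AURKB) with a median of −4.03, against −0.06 over all genes. Without plastic replicate 2, which held 0 reads of it, PKMYT1 was at −4.88, and without replicate 1 at −7.87. In percent of day 0, KIF15 (0.699%) and MKI67 (1.37%) were lower on plastic than PKMYT1 (1.48%). After PKMYT1 the most negative on the log2 scale were MKI67 (−6.12) and UBE2C (−6.03), and next to AURKB the least negative was HMMR (−2.61). The values of day 21 and day 0 did not overlap for any member, as for 41.1% of all genes. Against day 3, again all 35 fell (19.4% of all genes fell and 15.5% rose), with a median change of −3.22 on the log2 scale, with PKMYT1, KIF15 and CDC20 the most and KIF11 and AURKB the least negative. CDC20 was the member nearest to its day 0 level at day 3, and it changed by −5.37 between day 3 and day 21 on plastic (SE 0.26, limma adjusted p = 2.18e-11). None of the 35 rose in either comparison (limma, 0 at an unadjusted p under 0.05, 0 in edgeR). With the day 3 gradient as a covariate KIF11 was the one gene of 35 no longer called, in both comparisons.

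The comparisons of the scaffolds at day 21 with day 0 share the day 0 libraries with the plastic comparison, and they join the change of substrate to that of time and medium. All 35 genes fell on the smart scaffold, where 14.1% of all genes fell and 16.5% rose, and all 35 fell on the media scaffold, where 14.9% of all genes fell and 17.5% rose. None rose on either (limma, 0 at an unadjusted p under 0.05, 0 in edgeR). The median change was −3.77 on the smart scaffold and −3.74 on the media scaffold. On the smart scaffold KIF15 (−5.33), TOP2A (−4.88) and CDC20 (−4.61) were the most negative, and HMMR (−2.12) and RACGAP1 (−1.75) the least. On the media scaffold the most negative were TOP2A (−4.78), MKI67 (−4.20) and UBE2C (−4.13), and the least negative were ECT2 (−2.21) and RACGAP1 (−1.72).

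The comparison of the media scaffold with plastic at day 21 bears on the substrate, as the medium was the same. On the smart scaffold the growth factors were bound to the scaffold and absent from the medium, so substrate and medium changed together and cannot be told apart. A part of the members was higher on scaffold, among them MKI67, UBE2C, NUSAP1 and RACGAP1, and the rest were not called. Of the calls, 5 of 10 on the smart scaffold and 5 of 12 on the media scaffold held under every alternative tried. On the smart scaffold 10 of the 35 rose (21.4% of all genes rose and 16.0% fell), and on the media scaffold 12 rose (20.8% rose and 14.6% fell). The shares of the members, 28.6% and 34.3%, lay above those of all genes, and whether by more than chance was not tested. In limma 0 fell on either scaffold, with 2 lower on each at an unadjusted p under 0.05, and edgeR gave 0 lower on either. The 2 lower ones were AURKB and PLK1, which passed with no minimum fold, as did 31.1% of all genes on the smart and 30.6% on the media scaffold in that direction. On the smart scaffold the libraries of 15 members all lay above plastic and those of 4 below (36.8% and 36.3% of all genes). The 15 of 35 lie near the share of all genes. On the media scaffold the libraries of 18 members lay above and those of 2 below (35.8% and 35.4%). The median difference of the members was 0.49 on the smart scaffold and 0.51 on the media scaffold. The 10 of the smart scaffold were all among the 12 of the media scaffold (100% and 83.3% of the lists), but both comparisons use the same 2 plastic libraries. The 10 genes, with the smart and the media scaffold value, were PKMYT1 (2.61 and 2.43), CENPA (2.05 and 2.63), UBE2C (1.80 and 1.89), RACGAP1 (1.69 and 1.72), BUB1B (1.67 and 1.50), MKI67 (1.59 and 1.91), NUSAP1 (1.45 and 1.78), KIF20A (1.36 and 1.56), ECT2 (1.05 and 1.10) and CDC20 (1.04 and 1.62). KIF15 (0.69 and 2.10) and CCNB1 (0.79 and 1.24) were called on the media scaffold alone, and the difference between the scaffolds did not pass the test for either.

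By role, both APC/C partners rose on both scaffolds, as did 3 of 6 cytokinesis genes and 2 of 8 kinetochore and checkpoint genes, beside 21.4% of all genes on the smart and 20.8% on the media scaffold. The 2 of 8 lie near the share of all genes, and both, CENPA and BUB1B, were lost with the day 3 gradient as a covariate. Without plastic replicate 1 both CDC20 calls and the smart scaffold call of KIF20A were lost. The ECT2 calls were lost in 14 of 19 alternatives (smart scaffold) and 7 of 20 (media scaffold). Of the 7 spindle genes 1 rose on the smart and 2 on the media scaffold, and of the 7 entry cyclins and kinases 1 and 2. Of the 3 passenger complex genes 0 were called in limma or in edgeR, with 1 higher and 1 lower on the smart scaffold and 1 higher and 1 lower on the media scaffold at an unadjusted p under 0.05 in limma. The smallest differences from plastic were those of CCNA2 (0.00) and KIF23 (0.01) on the smart scaffold and of KIF11 (0.00) and TTK (0.06) on the media scaffold. Their 95% intervals were wide, from −0.75 to 0.76 for CCNA2 and from −1.18 to 1.31 for TTK, so a 2-fold difference in TTK was not detectable at this depth. MKI67, NUSAP1, UBE2C and RACGAP1 were called on both scaffolds under every alternative tried, with KIF20A on the media scaffold and PKMYT1 on the smart scaffold. PKMYT1, with 5 and 0 reads on plastic, was at 1.12 on the smart and 0.93 on the media scaffold without plastic replicate 2, and at 4.10 and 3.92 without plastic replicate 1. Other measures moved with the plastic group. The summed blood and immune markers were 6.57 to 12.9 normalized reads in the scaffold libraries, against 102 and 127 on plastic, and CD14, CD68 and LAPTM5 were called lower on both scaffolds, while both plastic libraries lay high on the day 3 gradient. With that gradient as a covariate, 7 genes rose and 2 fell on the smart scaffold and 8 rose and 1 fell on the media scaffold. The part of the marker genes in the result was not tested.

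**Figure D4:**
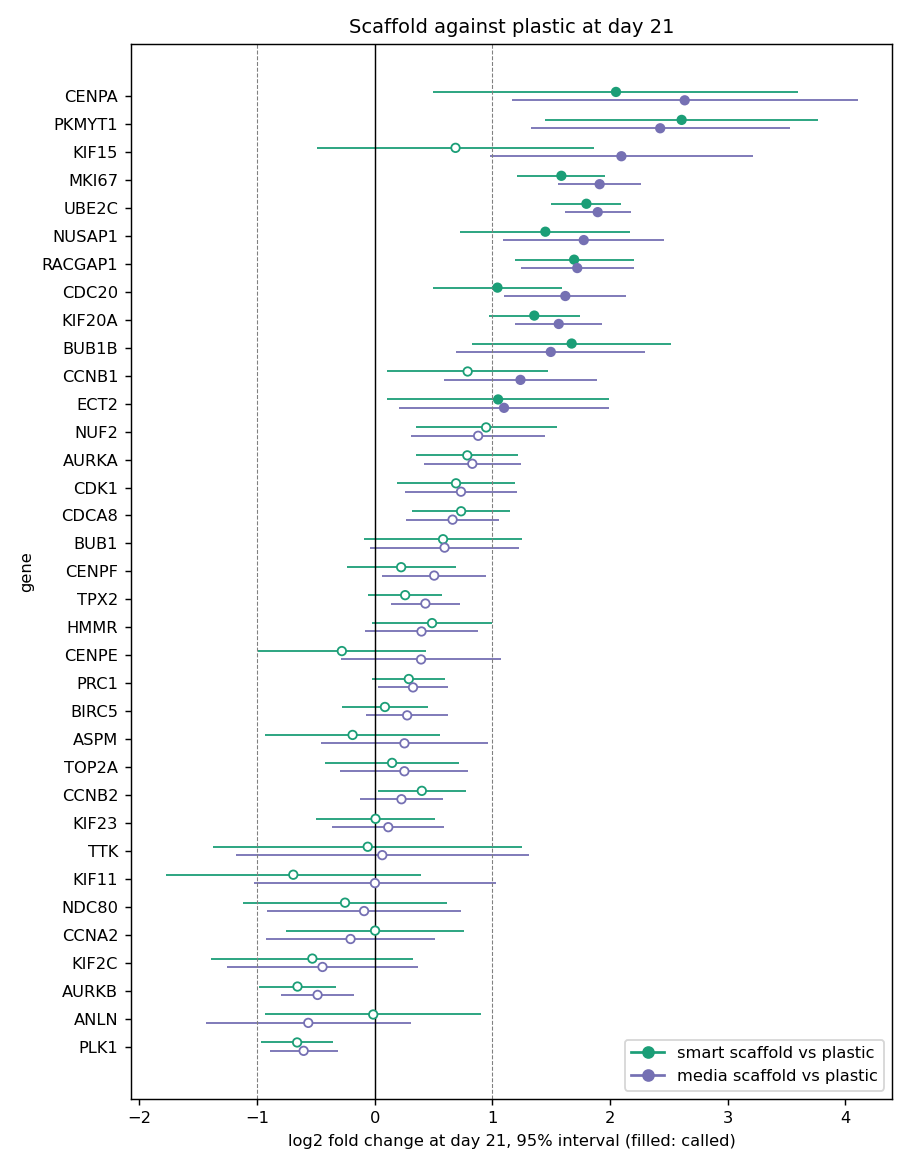
Log2 difference of each of the 35 genes at day 21 (horizontal axis, on the log2(normalized reads + 1) scale, with 95% interval) between the smart scaffold and plastic (green) and between the media scaffold and plastic (purple). Filled points were called and dashed lines mark the 2-fold threshold. The values of called genes run from 1.04 (CDC20, smart scaffold) to 2.63 (CENPA, media scaffold), and PLK1 and AURKB lie left of 0 on both scaffolds.

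Between the smart and the media scaffold, which differ in whether the growth factors were bound to the scaffold or dissolved in the medium, none of the 35 genes was called. In limma 0 rose and 0 fell, with 0 higher and 4 lower at an unadjusted p under 0.05, and edgeR called 0 in either direction. Of all genes 0.0730% rose and 0.830% fell. The smallest adjusted p was 0.151. The differences ran from −1.41 (KIF15) to 0.55 (ANLN) with a median of −0.10. The most negative after KIF15 were KIF11 (−0.69) and CENPE (−0.67), and the smallest were those of BUB1 (−0.01) and RACGAP1 (−0.03), both of which changed sign under some of the alternatives. For MKI67 and CDC20 every smart scaffold library lay below every media scaffold library, as for 10.4% of all genes. MKI67 differed by −0.33 (95% interval −0.64 to −0.01) and CDC20 by −0.58 (95% interval −1.03 to −0.12), so that the intervals reach down to about the 2-fold threshold for CDC20. KIF15 was called lower without smart scaffold replicate 3 (−2.00, limma adjusted p = 0.0418).

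Genes that act around the 35 were read from lists of their regulators, partners and relatives. Against day 0, 14.1% of all genes fell on the smart scaffold, 14.9% on the media scaffold and 24.1% on plastic, and 16.5%, 17.5% and 21.2% rose. Of 21 tested transcription factors of the cell cycle, 12 fell and 0 rose on the smart scaffold against day 0 (limma, 2 higher at an unadjusted p under 0.05, 1 in edgeR), 12 fell and 1 rose on the media scaffold, and 11 fell and 0 rose on plastic (limma, 2 higher at an unadjusted p under 0.05, 0 in edgeR). FOXM1, the activator of G2 and M genes, had 11.6, 17.4 and 11.5 normalized reads on the smart scaffold, 18.9, 21.9, 16.2 and 15.8 on the media scaffold, and 4.14 and 3.44 on plastic at day 21, against 209, 253 and 259.7 at day 0. It fell by 5.65 on the log2 scale on plastic, with E2F8 (−5.52) and MYBL2 (−4.50) after it, and it was higher than on plastic by 1.57 on the smart and 2.00 on the media scaffold. Of the 21 factors, 4 rose and 3 fell against plastic on each scaffold, near the shares of all genes. Those were 21.4% higher and 16.0% lower on the smart scaffold, and 20.8% and 14.6% on the media scaffold. The changes against plastic were larger than that of FOXM1 for LIN52 (2.54 and 2.36), RB1 (2.78 and 2.32) and NFYB (−2.37 and −2.18). In the plastic libraries of day 21, 1 read counts as 1.38 and 3.44 normalized reads. The plastic levels of FOXM1 and of RB1 (6.90 and 3.44) thus rest on few reads. Of 6 CDK inhibitors, CDKN1A, the gene of the p53 target p21, had 11399, 11413 and 10974 normalized reads on the smart scaffold, 9779.6, 9410.5, 9439.7 and 9673 on the media scaffold, and 2891 and 2756 on plastic, against 1593, 1569 and 1595 at day 0. CDKN1A rose by 2.00 on the smart and 1.76 on the media scaffold against plastic, where 1 and 2 of the 6 inhibitors rose. CDKN1C rose against day 0 by 2.33 on the smart scaffold, 2.96 on the media scaffold and 3.51 on plastic. CDKN3, a phosphatase listed with them, changed by −3.23 on the smart scaffold, −3.11 on the media scaffold and −3.58 on plastic.

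Of 9 cyclins and kinases of G1, the growth phase before DNA replication, 1 rose and 4 fell on the smart scaffold against day 0, 2 rose and 5 fell on the media scaffold, and 3 rose and 4 fell on plastic. Of all genes, 16.5%, 17.5% and 21.2% rose and 14.1%, 14.9% and 24.1% fell in these comparisons. The 3 that rose on plastic were the D cyclins CCND1 (1.83), CCND2 (2.88) and CCND3 (2.66), and CCND3 rose on both scaffolds too (1.78 on the smart and 1.96 on the media scaffold). CCND2 had 2580.2, 2264 and 1744 normalized reads on the smart scaffold, 3240.2, 3618, 3115 and 3068 on the media scaffold, and 8094 and 13553 on plastic at day 21, against 1693, 1168 and 1462 at day 0. Relative to plastic, CCND2 changed by −2.27 on the smart and −1.69 on the media scaffold, and CCND1 by −2.45 and −1.86. Of the 9, these 2 were called lower on each scaffold. At day 3 CCND1 rose by 1.29, while CCNE2 (−1.60) and CDC25A (−1.36) fell.

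Of 33 other centromere and kinetochore genes, 26 fell on the smart scaffold, 25 on the media scaffold and 30 on plastic against day 0, led on plastic by HJURP (−5.68), the chaperone of CENPA, CENPU (−4.81) and SKA1 (−4.73). Of 23 other spindle and cytokinesis genes all 23 fell in each of the 3 comparisons, led on plastic by SPAG5 (−5.71), CDCA3 (−5.58) and TROAP (−5.41). In these 2 lists 0 rose against day 0 in any of the 3 groups (limma, 0 at an unadjusted p under 0.05, 0 in edgeR). Of 13 other mitotic kinases and phosphatases, 10, 10 and 11 fell on the smart scaffold, the media scaffold and plastic, and 1 rose in each, NEK6. Condensin and cohesin genes fell in 10, 10 and 11 of 16 cases. Of 18 APC/C subunits and targets, 3, 4 and 10 fell, among them the separase gene ESPL1 (−4.07 on the smart scaffold, −3.79 on the media scaffold and −3.17 on plastic) and the geminin gene GMNN. Of all genes, 14.1%, 14.9% and 24.1% fell in these comparisons, so the APC/C count on the smart scaffold was near the share of all genes. By day 3, 5 of the 33 centromere genes, 3 of the 13 kinases, 2 of the 16 condensin and cohesin genes, 1 of the 23 spindle genes and 1 of the 18 APC/C genes had fallen, as had 3.73% of all genes.

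Against plastic at day 21, 9 of the 33 centromere and kinetochore genes rose on the smart scaffold and 10 on the media scaffold, with 1 lower on each, SGO2. Of all genes, 21.4% rose and 16.0% fell on the smart scaffold, and 20.8% rose and 14.6% fell on the media scaffold. CENPL, a centromere protein, led the centromere list on both (3.78 and 3.74). Of the 23 spindle and cytokinesis genes 7 rose and 2 fell on the smart scaffold, and 8 rose and 0 fell on the media scaffold (limma, 3 lower at an unadjusted p under 0.05, 0 in edgeR), led by STMN1 (1.65 and 1.90), which frees tubulin from spindle fibres, and CDCA3 (1.60 and 1.71). WEE1, which with PKMYT1 holds CDK1 inactive, had 38.0, 39.0 and 31.0 normalized reads on the smart scaffold and 37.8, 38.8, 35.6 and 40.5 on the media scaffold, against 8.28 and 3.44 on plastic. WEE1 rose by 2.52 on the smart and 2.61 on the media scaffold, and PKMYT1 was called on both too, each on few plastic reads. The 3.44 of WEE1 in plastic replicate 2 is 1 read, and PKMYT1 had 5 and 0 reads on plastic. Without plastic replicate 2 the media scaffold call of PKMYT1 was lost (0.93). The scaffold levels of WEE1 lay near its day 0 level of 42.9, 39.5 and 54.1. Of the 13 other mitotic kinases and phosphatases 4 rose and 2 fell, NEK2 and BORA, on the smart scaffold, and 4 rose and 1 fell, BORA, on the media scaffold. In edgeR 2 of them rose and 0 fell on the smart scaffold, and 4 rose and 1 fell on the media scaffold. Of the 16 condensin and cohesin genes 1 rose and 3 fell on the smart scaffold (NCAPD3, PDS5B and SMC1A), and 2 rose and 2 fell on the media scaffold (PDS5B and SMC1A). Of the 18 APC/C subunits and targets, 3 rose on the smart and 2 on the media scaffold, below the shares of all genes (21.4% and 20.8%). In limma 0 fell on either (5 and 6 lower at an unadjusted p under 0.05, 0 in edgeR). Those that rose were ANAPC4 (2.78 and 2.77) and ANAPC16 (1.75 and 1.79) on both scaffolds and CDC27 on the smart scaffold.

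As a contrast, 13 kinesins of interphase transport and 14 genes of quiescence were read the same way. Of the transport kinesins, 2 rose and 0 fell on each scaffold against day 0 (limma, 3 lower at an unadjusted p under 0.05 on each, 0 in edgeR), and on plastic 2 rose and 4 fell, led by KIF21A (−2.41). Of all genes 14.1% fell on the smart scaffold, 14.9% on the media scaffold and 24.1% on plastic. The mitotic kinesins among the 35 all fell in the same comparisons. Against plastic, 2 of the 13 transport kinesins rose on the smart and 4 on the media scaffold (21.4% and 20.8% of all genes), and 0 fell on either (limma, 4 lower at an unadjusted p under 0.05 on each, 0 in edgeR). Of the quiescence and antiproliferative genes, 8 rose on each scaffold, and 6 rose and 2 fell on plastic, where 16.5%, 17.5% and 21.2% of all genes rose on the smart scaffold, the media scaffold and plastic. GAS6, a growth arrest gene, rose by 5.12 on the smart scaffold, 5.23 on the media scaffold and 4.03 on plastic, and the forkhead factor gene FOXO4 by 2.75, 2.79 and 3.85.

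**Figure D5:**
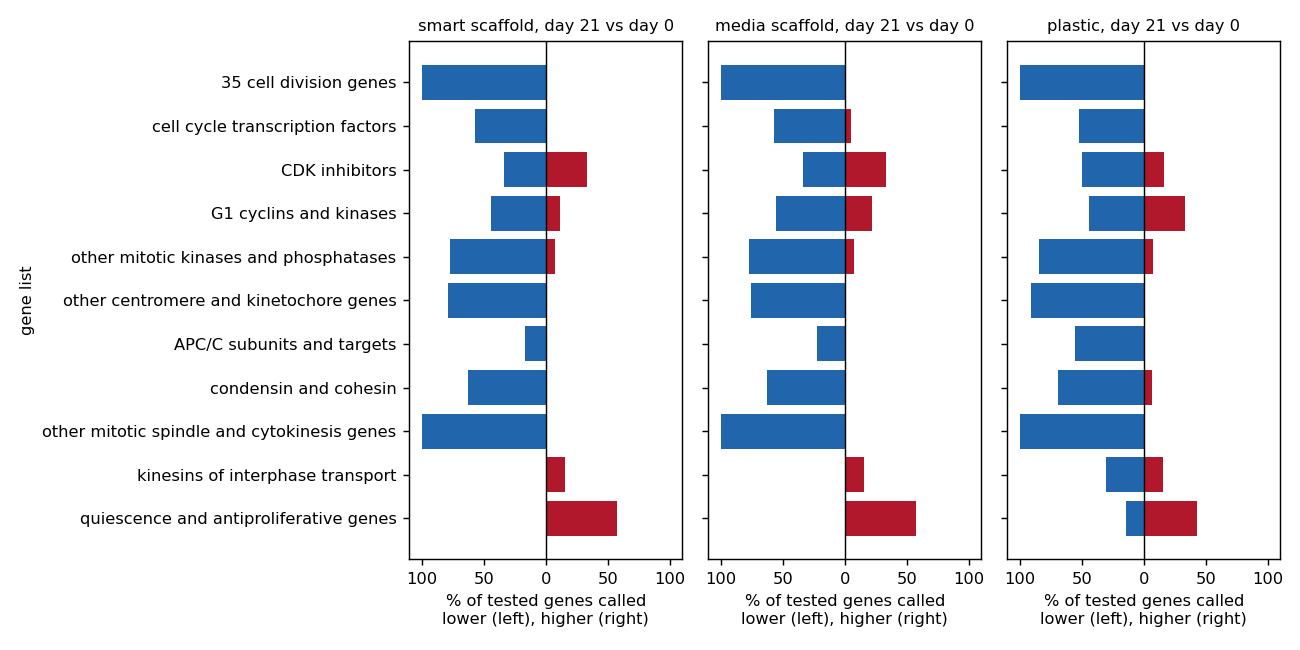
Share of the tested genes of each list (vertical axis) called lower (bars to the left) or higher (bars to the right), in percent, at day 21 against day 0, for the smart scaffold, the media scaffold and plastic. All 35 cell division genes and all 23 other spindle and cytokinesis genes were lower in each panel, and quiescence genes were higher in 8 of 14 cases on each scaffold and in 6 of 14 on plastic.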

How the data were processed

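RNA of 15 libraries in 5 groups was counted by MARS-seq, a 3′-end method. The labels list 17 libraries in 6 groups; 2 columns matched no label and entered no step, and the group on scaffold at day 0 was not analysed here. The deposited values are a normalized signal per gene, reads divided by 1 size factor per library by the authors. Per the submitters' processing notes cutadapt, STAR, HTSeq, DESeq and the build ARS-UCD1.2 were used, with no versions. All values (100%) were whole multiples of a library's 1-read value within 0.1, which gave back the reads.

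All genes with a mean of at least 5 were tested in 1 fit with limma 3.58.1 (R 4.3.3) on log2(value + 1), with mean-variance trend, robust empirical Bayes and two-sided, Benjamini-Hochberg adjusted p-values over the 10960 genes. This scale draws changes of low genes toward 0, but a library at 0 can enlarge them. PKMYT1 on the smart scaffold against plastic was at 2.61, and at 1.12 without the plastic library that held 0 reads. edgeR 4.0.16 (quasi-likelihood, TMM) was run on the reads of 13 libraries, without day 3 replicate 2 and media scaffold replicate 2. These were left out because their 1-read values (1.006 and 0.995) are near 1, as in rounded values. Their deposited values were still whole multiples of them, as in the other libraries. The scripts were tested on simulated data. Alternatives varied pseudocount, filter, scaling, weights, block, tool and libraries. Replicate numbers were not used to pair libraries.

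Every library's value is given for MKI67, CCNB1, CDK1, AURKB and CDC20 and, in each comparison, the 3 largest and 2 smallest changes; other genes named with values illustrate a role. Of the lists, up to 3 called genes with the largest change per comparison are named; FOXM1, CDKN1A, CCND2 and WEE1 values by library, SGO2, NEK2, NEK6, BORA, NCAPD3, PDS5B, SMC1A, ESPL1 and GMNN were chosen after values were seen. The members and all lists were chosen with earlier results of these data known.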

Additional observations from a re-analysis of the deposited data

Results flagged for a closer look

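Of 35 gene levels examined over the 4 media scaffold libraries, 4 had 1 library far from the other 3 by Dixon's criterion, which chance alone meets in about 5% of groups. UBE2C had 175 normalized reads in replicate 4, against 124 to 131 in the other libraries. BIRC5 had 113 normalized reads in replicate 4, against 78.8 to 84.2. HMMR had 26.7 normalized reads in replicate 3, against 31.8 to 32.6, and ECT2 had 14.8 in replicate 1, against 11.8 to 12.1. The calls of UBE2C on the media scaffold held without each library in turn, while that of ECT2 was lost without replicate 1 (1.03, limma adjusted p = 0.0637).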

How the results depend on the processing

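All 35 genes fell on both scaffolds against day 0 under every alternative that tested them, the minimum mean of 20 leaving 34 without KIF11. On plastic against day 0 and day 3 34 of 35 did, KIF11 not being called with the day 3 gradient as a covariate (−1.33 and −0.61). The number that fell by day 3, 5 in the report, was 3 after rescaling to the same total, 13 with array weights, 21 with no minimum fold, 3 in limma on the 13 libraries of the count test, and 3 (without day 3 replicate 2) to 16 (without day 3 replicate 3) when leaving out a library. Against plastic, the numbers that rose when leaving out a library ran from 7 (without plastic replicate 1) to 13 (without plastic replicate 2) on the smart scaffold and from 8 to 14 on the media scaffold. With no minimum fold, 15 rose on the smart and 18 on the media scaffold and 2 fell on each, and with the gradient covariate 2 fell on the smart and 1 on the media scaffold. Between the scaffolds 1 gene was lower with array weights, and 0 to 1 when leaving out a library. As a share of reads the summed level was 6.74% of day 0 on the smart scaffold, 7.30% on the media scaffold and 4.61% on plastic.

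Differences near 0 changed sign. For the media scaffold against plastic, KIF11 was at −0.0026 with pseudocount 0.5, −0.10 with quantile normalization, −1.04 with the gradient, −0.0020 in the 13 libraries and −0.15 to 0.23 without single libraries. TTK was at −0.053 with pseudocount 4, −0.18 with quantile normalization, −0.64 with the gradient and −1.06 to 1.19 without single libraries. For the smart scaffold against plastic, ECT2 was at −0.030 with the gradient. CCNA2 was at −0.043 with quantile normalization, −0.012 with array weights, −0.17 with the replicate block, −0.82 with the gradient and −0.23 to 0.24 without single libraries. KIF23 was at −0.081 with quantile normalization, −0.018 with the replicate block, −0.12 and −0.17 in edgeR with TMM and the deposited factors, −0.22 with the gradient and −0.36 to 0.37 without single libraries. Between the scaffolds BUB1 was at 0.0051 rescaled, 0.017 with quantile normalization and −0.098 to 0.083 without single libraries. RACGAP1 was at 0.010 with array weights, 0.0069 with the replicate block and −0.10 to 0.039 without single libraries, and CDK1 was at −0.18 to 0.13 without them. The causes were not tested.

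Rescaling moved the median of all genes by −0.22 (smart scaffold), −0.25 (media scaffold) and −0.26 (plastic) against day 0 and −0.32 (plastic) against day 3. Genes called higher and lower were then 1420 and 2155, 1494 and 2271, 1812 and 3276, and 1148 and 3057, while with the deposited scaling they were 1808 and 1546, 1913 and 1635, 2320 and 2636, and 1700 and 2124. Same-numbered libraries had correlations of deviations of −0.07 to 0.16, over 0.1 for plastic at day 21 against day 3 alone, so the numbers were not taken as pairs. With the replicate block 5 genes fell by day 3, 9 rose on the smart and 11 on the media scaffold against plastic, and 35 fell in each comparison of day 21 with an earlier day. The gradient and the 13-library fit were chosen after seeing the data. Depth limits the genes with few reads at day 21, KIF15 (1 read on plastic) above all.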
